A study of Mus musculus with 24 samples.

Results

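The 9 genes described here encode enzymes and direct partners that place, copy, oxidise or remove methyl groups on cytosine: Dnmt1, Uhrf1, Dnmt3a, Dnmt3b, Dnmt3l, Tet1, Tet2, Tet3 and Tdg. They were chosen by name, as a list of known function, and all 9 were found among the 21909 gene symbols of the RNAseq tables of mouse ESCs and NPCs. The study mapped nucleolus-associated domains (NADs) in both cell types and measured RNA in 3 ESC and 3 NPC samples. ESCs were of the E14 line, untreated, and were kept without feeder cells in 2i medium with 1000 U/ml LIF, 3 µM CHIR99021 (a GSK3β inhibitor) and 1 µM PD0325901 (a MEK inhibitor). NPCs were untreated cells made from E14 cells in serum-containing medium as embryoid bodies over 8 days, with 2 µM retinoic acid in the last 4 days. Each RNA sample came from its own culture dish of the same line, so the tests below measure the spread between dishes and not between lines or animals. ESC and NPC values came as 1 table per cell type, and no batch common to both is named, so cell type, medium and batch cannot be told apart.

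DNMT1 copies methylation onto the new strand after replication, and UHRF1 recognises hemimethylated CpGs and brings DNMT1 to them. DNMT3A and DNMT3B methylate CpGs that carry no mark, and DNMT3L, which has no catalytic activity, binds and stimulates both. TET1, TET2 and TET3 oxidise 5-methylcytosine, and the glycosylase TDG cuts out the most oxidised forms, after which base excision repair restores cytosine; ESCs in 2i medium are known for low methylation.

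Levels are given in RPKM, reads scaled to exon length and to all reads, which the authors computed sample by sample; the test across the cell types therefore spans 2 tables. RPKM is per length, so levels of different genes can be set side by side. This holds less well in ESC replicate 3, whose values shifted with exon length (below). Because no counts are given, depth was estimated from the smallest values above 0 and exon length, as the most frequent value for a single read. This gave about 33.9, 33.9 and 30.9 M reads in ESC replicates 1, 2 and 3 and 29.5, 26.9 and 32.4 M reads in NPC replicates 1, 2 and 3. The most frequent value was shared by few genes, from 96 of 5016 genes with low values in ESC replicate 3 to 113 of 5061 in ESC replicate 2. The estimates for NPC replicates 1 and 2 also lie below the range of RNAseq depth that the study's reporting summary states. All estimates are therefore rough. At this depth 1 read of Dnmt3l was worth about 0.00988 RPKM in ESC replicate 1 and 0.0124 RPKM in NPC replicate 2, and 1 read of the longer Tet3 0.00177 and 0.00223 RPKM.

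ESC replicate 3 stood apart from the other ESC samples. Across 7835 tested genes, which are not independent replicates, Pearson's r of log2(RPKM + 1) was 0.999 between ESC replicates 1 and 2, but 0.963 and 0.966 between ESC replicate 3 and these. Between NPC samples r was 0.996 to 0.999. The RPKM values of ESC replicate 3 summed to 139988, against 104016 and 105859 in ESC replicates 1 and 2. Its departure followed exon length: relative to the mean of the other ESC samples, the median gene was at 0.60 on the log2(RPKM + 1) scale in the bin of genes with the shortest exons, of 10 bins of nearly equal number, and at -0.46 in the bin with the longest. NPC samples showed medians of at most 0.02 in either direction in any bin. In ESC replicate 3, Tet1 departed by -1.43 and Tet2 by -1.18 from the other ESC samples, where genes of the same length bin had a median of -0.46. Dnmt3a and Tet3, of the same bin, departed by -0.08 and -0.04. At their low levels in ESCs, the added 1 RPKM hides most of a change. Dnmt3a was at 0.117 RPKM in ESC replicate 3, against 0.172 and 0.187 RPKM in replicates 1 and 2. Tet3 was at 0.0275 RPKM in ESC replicate 3, against 0.0601 and 0.0576 RPKM. Dnmt1 departed by -0.97 and Uhrf1 by -0.86, against medians of -0.29 and -0.06. Dnmt3b and Tdg departed by -0.46 and -0.50, against -0.15, whereas Dnmt3l departed by 0.29, against 0.03. The tested difference of each member is therefore given with all samples and without ESC replicate 3; what made this sample differ was not tested.

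**Figure D1:**
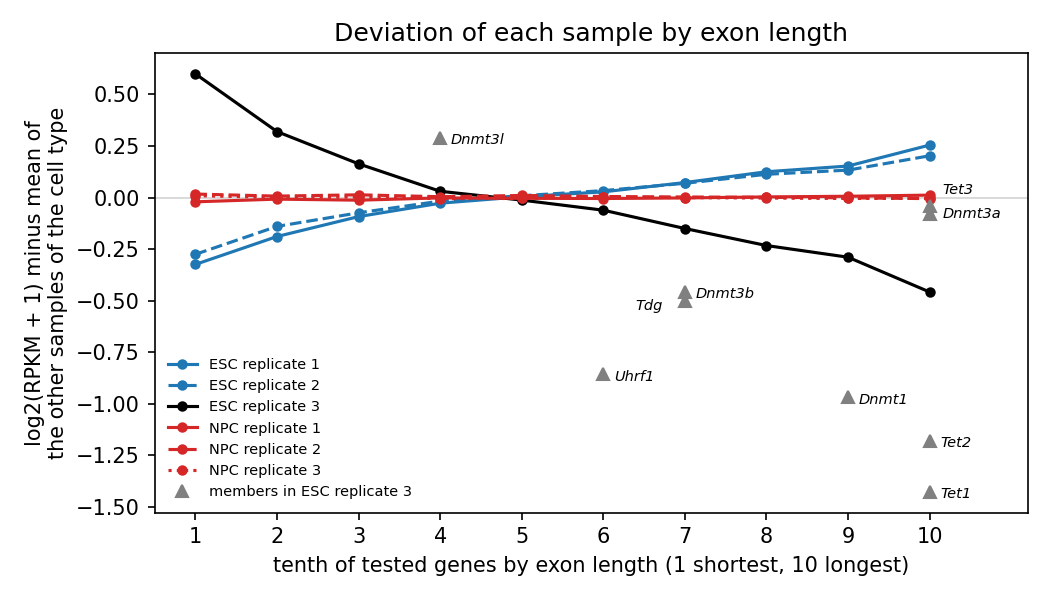
Median deviation of each sample from the mean of the other samples of its cell type (y axis, log2(RPKM + 1)) in 10 bins of the tested genes by exon length (x axis, 1 shortest to 10 longest); triangles are the members in ESC replicate 3. ESC replicate 3 goes from 0.60 in the bin of the shortest genes to -0.46 in that of the longest, while NPC samples stay within 0.02 of 0.

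Marker genes were read in both cell types. Of all 7835 genes tested, 36.9% were called higher in NPCs and 33.3% lower. Genes were tested if they reached 1 RPKM in at least 3 samples, which bears on direction. Among others, Pax6, Sox1, Hes5 and all 4 endoderm markers were tested through NPC samples alone. The ESC markers other than Klf4 were tested through ESC samples alone, so that the counts below support nothing by themselves. All 6 ESC markers, among them Pou5f1 and Nanog, fell in NPCs (limma, adjusted p at most 6.23e-05); their levels summed to 348, 352 and 386 RPKM in ESCs and 2.16, 2.09 and 2.21 RPKM in NPCs, with Pou5f1 the most abundant. Of 6 neural progenitor markers, 5 were tested and 4 rose: Pax6, Sox1, Nes and Hes5. Their sum was 39.6, 41.1 and 49.5 RPKM in ESCs and 80.0, 84.1 and 86.2 RPKM in NPCs, of which Vim, the most abundant, held 44.0, 44.0 and 48.8 RPKM in NPCs without passing the test (limma adjusted p = 0.204; without ESC replicate 3 the difference was 0.32, adjusted p = 0.00208). Pax6, the defining marker of these progenitors, stood at 1.55, 1.42 and 1.67 RPKM in NPCs. All 4 endoderm markers also rose, with sums of 0.098, 0.115 and 0.083 RPKM in ESCs and 14.6, 16.0 and 15.5 RPKM in NPCs, led by Gata6 and Gata4, while Sox17 and Foxa2 stood between 1.13 and 1.85 RPKM there. The NPC samples thus held RNA of endoderm markers beside that of neural markers, and the part of these cells in the results below was not tested. Neurog2, of the neuron markers, rose to 2.96, 2.75 and 3.29 RPKM and Dcx stood at 1.05, 0.822 and 0.874 RPKM in NPCs, whereas Map2 was at most 0.152 RPKM. Tubb3 fell (-0.69, limma adjusted p = 0.00186), a call lost with samples scaled to equal sums (-0.38, limma adjusted p = 0.0584). Of the primed pluripotent markers Pou3f1 rose to 3.04, 2.28 and 1.57 RPKM, Otx2 fell from between 1.15 and 1.75 RPKM, and Fgf5 reached at most 0.328 RPKM. Mesoderm markers summed to at most 0.440 RPKM in NPCs, neural crest markers to at most 1.05 RPKM and germ cell markers to at most 0.009 RPKM.

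In NPCs against ESCs, 6 of the 9 members differed at an adjusted p under 0.05 (limma on log2(RPKM + 1)), close to the 70.2% of all 7835 genes tested. Dnmt3a and Tet3 rose (2 of 9, against 36.9% of all genes), and Uhrf1, Dnmt3b, Dnmt3l and Tet1 fell (4 of 9, against 33.3%). The same 2 and 4 members also differed by at least 1 on the log2 scale, which 16.6% of all genes did upwards and 12.1% downwards. With so many genes called, the count says little by itself, and the members are described by their levels. All 9 passed the filter of 1 RPKM in at least 3 of 6 samples, but Dnmt3a, Tet3 and Tdg passed through NPC samples alone and Dnmt3b and Dnmt3l through ESC samples alone, so that their number supports nothing. Without ESC replicate 3, all 9 were called, 3 higher and 6 lower, where 87.9% of all genes were called. In such bulk samples, fewer cells that express a gene and less RNA of it per cell cannot be told apart.

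**Figure D2:**
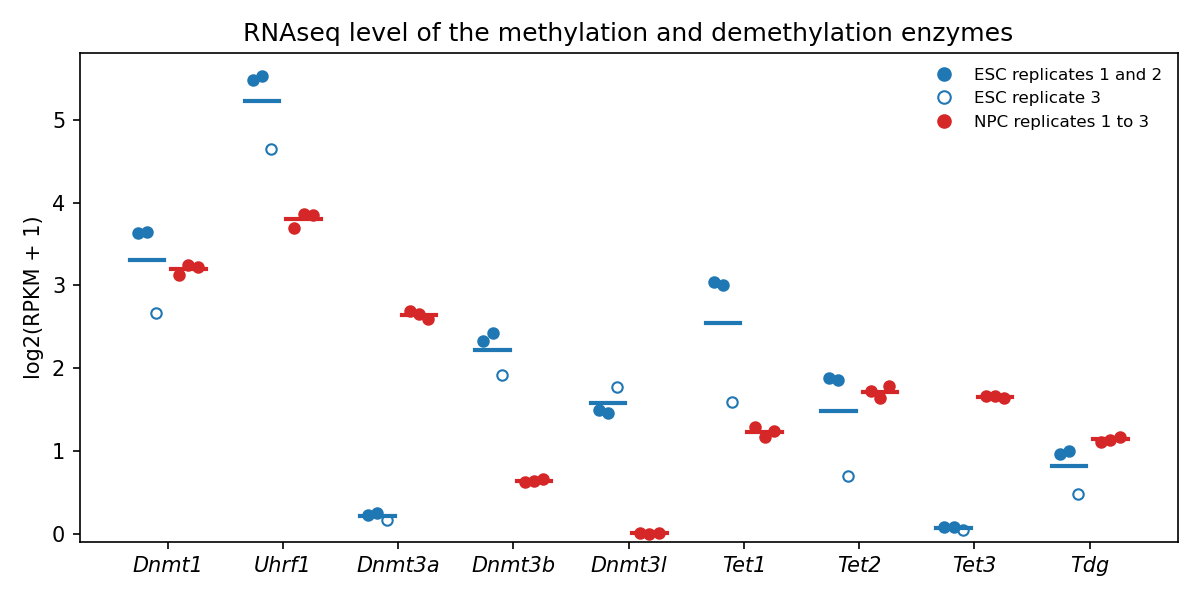
Level of each member in each sample on the log2(RPKM + 1) scale (y axis), ESCs in blue with replicate 3 as open circle and NPCs in red; lines are means of 3 samples. ESC and NPC samples overlap for Dnmt1 and Tet2, and ESC replicate 3 is the lowest ESC sample for every member but Dnmt3l.

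Of the maintenance genes, Uhrf1 had the highest level of all members in both cell types. It stood at 43.9, 45.3 and 24.2 RPKM in ESC replicates 1, 2 and 3 and at 11.9, 13.6 and 13.4 RPKM in NPCs. Each ESC sample was above each NPC sample, and the mean was 2.91 times as high in ESCs (37.8 ± 11.8 against 13.0 ± 0.927 RPKM, SD, n = 3 each). The difference was -1.42 on the log2(RPKM + 1) scale (SE 0.25, 95% interval -2.02 to -0.83, limma adjusted p = 0.00219), and -1.71 without ESC replicate 3 (adjusted p = 2.58e-07).

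Dnmt1, the methyltransferase that UHRF1 recruits, gave 11.4, 11.5 and 5.35 RPKM in ESCs and 7.75, 8.51 and 8.37 RPKM in NPCs. ESC replicates 1 and 2 lay above the NPC samples and ESC replicate 3 below them, so the groups overlapped. The difference of -0.11 did not pass the test (SE 0.27, 95% interval -0.76 to 0.54, limma adjusted p = 0.727). Without ESC replicate 3 it was -0.43 (95% interval -0.55 to -0.31, adjusted p = 0.000113), or 1.39 times as much in ESCs. Its direction was not the same under all scalings: with samples scaled by median ratios it was 0.08, with samples scaled to equal sums 0.31, and without ESC replicate 1 or 2 it was 0.05, each short of the threshold. Relative to the median of all genes, which these scalings moved from 0.02 to 0.18 and 0.45, it was -0.10 and -0.14, against -0.14 in the values as deposited.

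The de novo enzymes changed places between the cell types. Dnmt3a was at 0.172, 0.187 and 0.117 RPKM in ESCs and at 5.45, 5.32 and 5.02 RPKM in NPCs. The lowest NPC sample was far above the highest ESC sample, and the NPC mean was 33.2 times the ESC mean. On the log2(RPKM + 1) scale, which understates changes of low genes, the rise was 2.43 (SE 0.06, 95% interval 2.29 to 2.58, limma adjusted p = 2.41e-07), and 2.41 without ESC replicate 3.

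Dnmt3b went the other way, from 4.03, 4.35 and 2.78 RPKM in ESCs to 0.537, 0.557 and 0.578 RPKM in NPCs. The groups did not overlap, and the ESC mean was 6.68 times the NPC mean. The difference was -1.58 (SE 0.13, 95% interval -1.91 to -1.26, limma adjusted p = 6.43e-05), and -1.74 without ESC replicate 3. Isoforms, of which Dnmt3a and Dnmt3b have several that differ in activity, cannot be told apart in values per gene.

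Dnmt3l, the regulatory partner, was at 1.82, 1.76 and 2.41 RPKM in ESCs and at 0.00765, 0 and 0.00143 RPKM in NPCs. Each NPC value lay below the estimated value of 1 read (0.0113, 0.0124 and 0.0103 RPKM), which shows that the estimate is no floor for this gene. Its level in NPCs was at the limit of the depth, and no fold is given. The difference on the log2(RPKM + 1) scale was -1.57 (SE 0.08, 95% interval -1.77 to -1.37, limma adjusted p = 6.24e-06), and -1.48 without ESC replicate 3, the sample in which it was highest. The start of Dnmt3l overlaps the start of Aire on the opposite strand, which was at 0.590, 0.445 and 0.371 RPKM in ESCs and at most 0.165 RPKM in NPCs. The methods name a stranded library kit and the labels another kit. Whether strand was used in computing RPKM is not given in the sources used here. Reads of both genes in the shared stretch may therefore not have been told apart. Genes on the opposite strand also overlap the spans of Dnmt3a, Dnmt3b, Tet2, Tet3 and Tdg, and the same limit may hold for these.

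As shares of the summed RPKM of these 3 genes, Dnmt3b held 66.9%, 69.1% and 52.4% in ESC replicates 1, 2 and 3, Dnmt3l 30.2%, 27.9% and 45.5%, and Dnmt3a 2.85%, 2.97% and 2.20%. In NPCs Dnmt3a held 90.9%, 90.5% and 89.7% and Dnmt3b 8.96%, 9.47% and 10.3%. The sum itself was 6.02, 6.30 and 5.31 RPKM in ESCs and 6.00, 5.88 and 5.60 RPKM in NPCs, so the ESC and NPC samples overlapped in the sum through ESC replicate 3. ESC replicates 1 and 2 were above every NPC sample, by little.

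Among the dioxygenases, Tet1 had the highest level in ESCs. It gave 7.22, 7.00 and 2.02 RPKM there and 1.44, 1.25 and 1.36 RPKM in NPCs. ESC replicate 3 was nearer to the NPC samples than to the other ESC samples, though still above them. The ESC mean was 4.01 times the NPC mean, a difference of -1.31 with a wide error (SE 0.38, 95% interval -2.24 to -0.39, limma adjusted p = 0.0207). Without ESC replicate 3 the difference was -1.79 (SE 0.05, adjusted p = 3.96e-08), a 5.27 times higher mean in ESCs. With ESC replicate 3 kept, the call was lost when any other sample was left out: the difference was -1.06 without ESC replicate 1, -1.08 without ESC replicate 2, -1.34 without NPC replicate 1, -1.28 without NPC replicate 2 and -1.32 without NPC replicate 3 (limma adjusted p 0.057 to 0.0632). It was also lost with samples scaled to equal sums (adjusted p = 0.0901).

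Tet2 gave 2.70, 2.64 and 0.616 RPKM in ESCs and 2.29, 2.11 and 2.45 RPKM in NPCs. ESC replicates 1 and 2 were above all NPC samples and ESC replicate 3 below them. The difference was 0.23 (SE 0.32, 95% interval -0.54 to 1.00, limma adjusted p = 0.537) and changed direction without ESC replicate 3, to -0.16 (95% interval -0.28 to -0.04, adjusted p = 0.0185). The sign of the Tet2 difference thus rested on this sample.

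Tet3 was the lowest member in ESCs, at 0.0601, 0.0576 and 0.0275 RPKM, and stood at 2.16, 2.16 and 2.12 RPKM in NPCs. The groups did not overlap and the NPC mean was 44.3 times the ESC mean, or 36.5 times that of ESC replicates 1 and 2. The rise was 1.59 on the log2(RPKM + 1) scale (SE 0.04, 95% interval 1.50 to 1.67, limma adjusted p = 2.03e-07), and 1.57 without ESC replicate 3.

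Of the summed RPKM of the Tet genes, Tet1 held 72.4%, 72.2% and 75.8% in ESCs and 24.4%, 22.6% and 23.0% in NPCs. ESC replicate 3 was close to the other ESC samples in this share, although its sum was 2.66 RPKM against 9.98 and 9.69 RPKM. In NPCs, with sums of 5.90, 5.52 and 5.92 RPKM, Tet2 held 38.9%, 38.2% and 41.3% and Tet3 36.7%, 39.2% and 35.7%.

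Tdg, which excises the oxidised bases, gave 0.948, 0.999 and 0.392 RPKM in ESCs and 1.16, 1.20 and 1.26 RPKM in NPCs. All NPC samples were above all ESC samples, but the difference of 0.33 did not pass the test (SE 0.14, 95% interval -0.01 to 0.66, limma adjusted p = 0.075). Without ESC replicate 3 it was smaller and passed, at 0.16 (SE 0.03, adjusted p = 0.00322), a mean 1.24 times as high in NPCs, and without ESC replicate 2 it passed at 0.42 (adjusted p = 0.0472). Tdg has processed pseudogene copies in the mouse genome, and how reads with several matches were treated is not given in the sources used here, so its level is uncertain.

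In ESCs the order of mean levels was Uhrf1, Dnmt1, Tet1, Dnmt3b, Dnmt3l, Tet2, Tdg, Dnmt3a and Tet3. The ranges of Dnmt1 and Tet1, of Tet1 and Dnmt3b, of Dnmt3l and Tet2 and of Tet2 and Tdg overlapped over the 3 samples, and the other neighbours were separate. Within ESC samples, Dnmt1 was above Tet1 and Tet2 above Tdg in all 3, Tet1 above Dnmt3b in 2 and Dnmt3l above Tet2 in 1. Tet2 (mean 2.67 RPKM) stood above Dnmt3l (1.79 RPKM) when ESC replicate 3 was left out. In NPCs the order was Uhrf1, Dnmt1, Dnmt3a, Tet2, Tet3, Tet1, Tdg, Dnmt3b and Dnmt3l, with overlaps between Tet2 and Tet3 and between Tet1 and Tdg. Within NPC samples, Tet2 was above Tet3 in 2 and Tet1 above Tdg in all 3. Uhrf1 was above 98.3% of all symbols in ESCs and 95.8% in NPCs, and Dnmt1 above 93.1% and 92.9%. Dnmt3a moved from above 53.8% of symbols in ESCs to above 88.9% in NPCs, and Tet3 from 46.4% to 77.5%.

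Ratios between members were formed within each sample, where the scaling between samples cancels. With 3 samples per group, the two-sided exact permutation test cannot give a p below 0.1. Each of the 5 ratios that had a log2 value in all samples reached this p (adjusted over 5, also 0.1), since no ESC sample overlapped an NPC sample, and this test can pass none of them. Dnmt3b/Dnmt3a was 23.5, 23.3 and 23.8 in ESCs and 0.0986, 0.105 and 0.115 in NPCs, a difference of -7.80 on the log2 scale, and -7.79 without ESC replicate 3. With 0.1 RPKM added to both genes this difference was -6.90. With nothing added, the ratio was nearly the same in ESC replicate 3 as in the other ESC samples. Uhrf1/Dnmt1 was 3.85, 3.95 and 4.51 in ESCs and 1.54, 1.59 and 1.60 in NPCs, a difference of -1.38, and -1.31 without ESC replicate 3.

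Tet2/Tet1 was 0.374, 0.376 and 0.305 in ESCs and 1.59, 1.69 and 1.80 in NPCs, a difference of 2.27, and 2.17 without ESC replicate 3. The level of Tet2 relative to Tet1 thus differed between the cell types in the same direction with and without that sample, unlike the level of Tet2 itself. Tet3/Tet1 was 0.00832, 0.00823 and 0.0137 in ESCs and 1.50, 1.73 and 1.56 in NPCs, a difference of 7.35, and 7.59 without ESC replicate 3. With 0.1 RPKM added to both genes this difference was 5.65. Tdg/Tet1 was 0.131, 0.143 and 0.194 in ESCs and 0.802, 0.957 and 0.924 in NPCs, a difference of 2.54, and 2.70 without ESC replicate 3. Dnmt3l/Dnmt3b was 0.452, 0.404 and 0.868 in ESCs and 0.0142, 0 and 0.00247 in NPCs. For want of a log2 value at 0 it was tested only with 0.1 RPKM added to both genes. The difference was then -1.82 (exact permutation p = 0.1) and -1.49 without ESC replicate 3. As Dnmt3l in NPCs lay far below 0.1 RPKM, the size of this difference depends on the added value.

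For Dnmt3a, Tet3 and Dnmt3b, the 3 members with the largest difference on the log2(RPKM + 1) scale with all samples, tested genes with a similar pattern were sought by the root mean square distance of log2(RPKM + 1), centred on each gene's mean, over the 6 samples. The choice depends on the processing: Dnmt3l takes the place of Dnmt3b with a pseudocount of 0.1 (-4.33 against -2.51), under both scalings and without ESC replicate 1 (-1.61 against -1.53), ESC replicate 2 (-1.63 against -1.48) or NPC replicate 1 (-1.58 against -1.57), and Tet1 (-1.79) that of Tet3 (1.57) without ESC replicate 3. Close to Dnmt3a was Mxd4 (distance 0.042), with 0.110, 0.159 and 0.115 RPKM in ESCs and 5.12, 4.81 and 4.57 RPKM in NPCs. Nearest to Tet3 were Col4a2 (0.016), which rose from at most 0.0278 RPKM to between 2.05 and 2.15 RPKM, and Vash2 (0.018). Nearest to Dnmt3b were Slc52a3 (0.029) and Gldc (0.033), the latter with 3.88, 3.98 and 2.55 RPKM in ESCs and 0.425, 0.412 and 0.435 RPKM in NPCs.

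Genes that work with these enzymes, germline genes silenced by methylation, and genes of S phase and mitosis were read from 7 lists. They are described by counts and medians beside those of all 7835 genes tested, whose median difference was 0.02. In all, 57 of the 72 genes were tested (Pcna and Mbd4 are each in 2 lists); 13 rose and 36 fell, with a median of -0.58, where 36.9% of all genes were called higher and 33.3% lower; the counts of each list are to be read against these shares. As for the members, the filter bears on direction: among others, Uhrf2, Zbtb4 and Cxxc4 were tested through NPC samples alone and rose, and Prdm14, Dppa3 and Dazl through ESC samples alone and fell, so that such calls support nothing about a list. Every list's median kept its sign when samples were scaled by median ratios or to equal sums, but not its size. The median of all genes then moved to 0.18 and 0.45, and that of base excision repair to -0.20 and -0.02. With equal sums, the medians of metabolism, of S phase and mitosis and of all lists together were -0.26, -0.37 and -0.23. That of the readers was then 1.75, and 19 genes of the lists were called lower. Leaving out ESC replicate 3, 16 rose and 39 fell, with a median of -0.54, where 87.9% of all genes were called, 3437 higher and 3447 lower.

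Of the 6 maintenance partners, 1 rose and 5 fell (median -0.95), with the same counts without ESC replicate 3 but 2 lower with samples scaled to equal sums. Hells, a remodeller needed for methylation of repeats, fell from 9.48 ± 2.87 to 3.53 ± 0.195 RPKM (SD, n = 3 each), a difference of -1.17 (limma adjusted p = 0.00273; 0.0509 with samples scaled to equal sums). Lig1, the replicative DNA ligase, fell from 13.6 ± 1.49 to 5.93 ± 0.276 RPKM (-1.07). Uhrf2, the paralogue of Uhrf1, was the gene that rose, from 0.674 ± 0.152 to 2.69 ± 0.0865 RPKM (1.15, limma adjusted p = 2.37e-05).

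Of 13 genes of base excision repair after Tdg, 12 were tested, 3 rose and 6 fell (median -0.36, 2 lower with equal sums). The list also holds Ung, Smug1 and Mbd4, glycosylases that start repair on their own and do not act after TDG. Smug1, a uracil glycosylase, rose most, from 4.45 ± 0.899 to 40.1 ± 1.25 RPKM (2.93, limma adjusted p = 3.82e-06), and Gadd45a from 3.22 ± 0.655 to 8.47 ± 1.42 RPKM (1.17). Ung, another uracil glycosylase, fell from 15.5 ± 2.06 to 5.45 ± 0.487 RPKM (-1.36), and Apex1, the endonuclease that cuts at abasic sites, from 29.2 ± 7.01 to 13.7 ± 0.853 RPKM (-1.01). The list thus held glycosylases that moved in opposite directions.

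Of 10 genes listed as methyl-CpG readers, among them Mbd3, Mbd5 and Mbd6 of the MBD family, which are not known to bind methylated CpG selectively, 7 were tested, 5 rose and 0 fell by limma, also 0 at an unadjusted p under 0.05 (median 0.75). Zbtb38, named after its values were seen, was not tested, as ESC replicate 3 missed the filter; it stood at 1.27, 1.20 and 0.600 RPKM in ESCs and 0.226, 0.214 and 0.217 RPKM in NPCs, and was the 1 reader called lower with no filter, where the median was 0.56. Zbtb33, also called Kaiso, rose from 2.31 ± 1.15 to 8.83 ± 0.481 RPKM (1.64, limma adjusted p = 0.00186), Zbtb4 from 0.173 ± 0.0433 to 1.87 ± 0.0898 RPKM (1.29) and Mbd6 from 8.25 ± 3.23 to 19.7 ± 2.38 RPKM (1.22). Without ESC replicate 3, 6 rose and 1 fell: Mbd4, named here after its values were seen (-0.67).

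All 8 regulators of the enzymes were tested; 2 rose and 5 fell (median -1.36). Prdm14, which represses de novo methyltransferase genes in ESCs, fell from 4.19 ± 0.191 to 0.00251 ± 0.00242 RPKM (-2.37, limma adjusted p = 1.86e-07). Dppa3, which keeps UHRF1 from chromatin, stood at 14.7 ± 6.61 RPKM in ESCs and was listed at 0 in all 3 NPC samples (-3.89). Lin28a, an RNA-binding protein, fell from 11.4 ± 0.361 to 1.55 ± 0.0788 RPKM (-2.28) and Zfp57, which guards methylation of imprints, from 40.5 ± 5.96 to 12.8 ± 0.689 RPKM (-1.58). Ogt, which binds TET proteins, rose from 7.25 ± 2.46 to 17.8 ± 0.555 RPKM (1.24, limma adjusted p = 0.0033) and Cxxc4, a partner of TET2, from 0.00349 ± 0.00192 to 1.37 ± 0.0677 RPKM (1.24).

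Of 13 genes of methyl donor and TET cofactor metabolism, 11 were tested, 1 rose and 8 fell (median -0.58, 4 lower with equal sums). Mthfd1, of folate metabolism, fell from 6.30 ± 0.601 to 1.48 ± 0.0878 RPKM (-1.55, limma adjusted p = 8.84e-06), Shmt1 from 10.2 ± 0.225 to 2.97 ± 0.0478 RPKM (-1.50) and Shmt2, its mitochondrial counterpart, from 65.3 ± 4.76 to 25.4 ± 2.07 RPKM (-1.33). Ahcy, which clears S-adenosylhomocysteine, fell from 10.4 ± 0.408 to 4.37 ± 0.105 RPKM (-1.09).

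Of 10 germline genes whose promoters are silenced by methylation, Dazl alone passed the filter, through ESC samples alone, and it fell from 3.02 ± 0.298 to 0.00156 ± 0.0027 RPKM (95% interval of the difference -2.15 to -1.85, limma adjusted p = 5.73e-07). The others averaged at most 0.306 RPKM in ESCs. With no filter, all 10 were called lower in NPCs, where 4209 of 18360 genes were; most of the 10 averaged under 0.1 RPKM in ESCs.

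Of 14 genes of S phase and mitosis, 1 rose and 12 fell (median -0.77, 6 lower with equal sums). Mcm5 fell from 34.8 ± 2.16 to 13.0 ± 0.0651 RPKM (-1.35, limma adjusted p = 2.15e-05), Ccnb1 from 40.8 ± 1.44 to 16.9 ± 0.395 RPKM (-1.22), Mcm3 from 36.3 ± 1.89 to 16.5 ± 0.129 RPKM (-1.09) and Mcm2 from 35.8 ± 7.67 to 17.0 ± 0.822 RPKM (-1.01; adjusted p = 0.0871 with samples scaled to equal sums). Mki67 rose, from 11.5 ± 5.11 to 25.4 ± 1.17 RPKM (1.18, limma adjusted p = 0.0182), and this call was lost without NPC replicate 1 (1.19), 2 (1.14) or 3 (1.21), with adjusted p from 0.0508 to 0.0595; without ESC replicate 3 the difference was 0.77. The summed level of the list was 502, 510 and 474 RPKM in ESCs and 293, 302 and 296 RPKM in NPCs. Uhrf1 and Dnmt1 act in S phase, and the part of these differences in theirs was not tested.

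**Figure D3:**
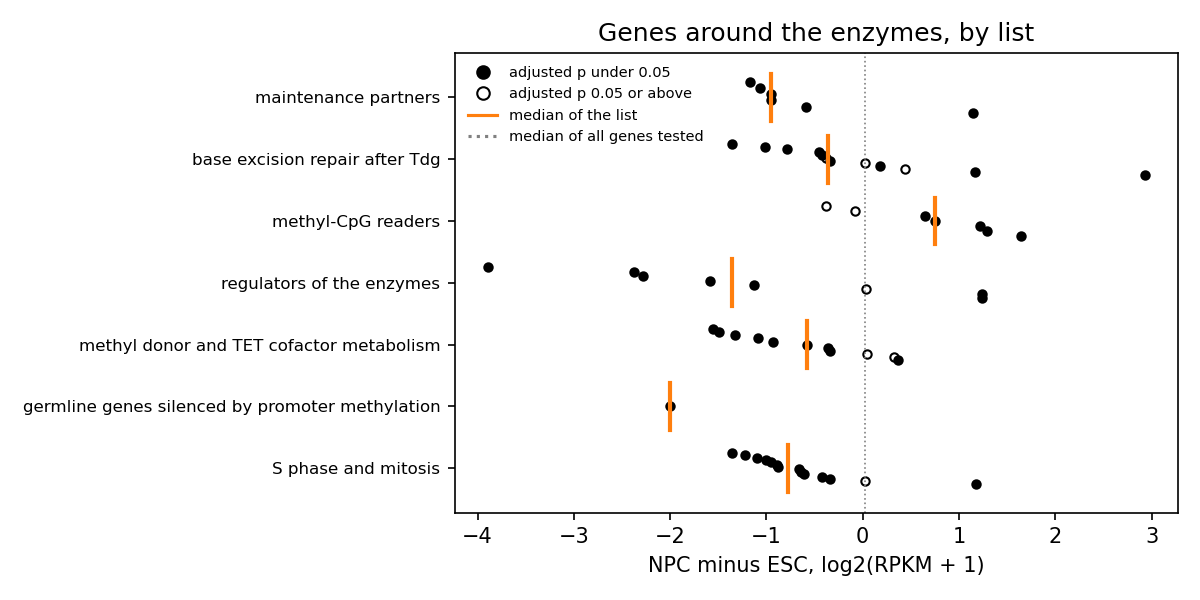
NPC minus ESC difference in log2(RPKM + 1) (x axis) of each tested gene of the 7 lists (rows); filled points passed an adjusted p under 0.05, open points did not, orange lines are list medians and the dotted line is the median of all genes tested (0.02). The readers have a median of 0.75, and the medians of the other lists are at or below -0.36; their signs are the same under both scalings tried.

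Nucleolar-DamID marks DNA near nucleoli through the bacterial methyltransferase Dam fused to H2B and a nucleolar localisation signal (H2B-Dam-NoLS), set against H2B-Dam. Both transgenes sat at Rosa26 in E14 cells (heterozygous, minimal hsp promoter) and were switched on by doxycycline (100 ng/ml) together with Shield1 (1 µM) over 15 h, with 2 samples of each per cell type, and the lists give no replicate values. No member overlapped any of the 1769 NADs of ESCs, where 26.9% of 21597 genes with a position did. In NPCs, Tet2 overlapped 1 of 1447 NADs, against 21.4% of genes. This NAD, chr3:133400237-133499965 on GRCm38, had a score of 0.0323, below the list's median of 0.0413, and covered 44.6% of the gene (chr3:133463679-133545139, minus strand) without its start. In ESCs the nearest member was Tet1 (chr10:62804570-62908996, minus strand), 4657 bases from a NAD there and 291497 bases from one in NPCs. In NPCs the nearest member without overlap was Dnmt3a, at 106079 bases. The paper ran its DamID pipeline at a resolution of 100 kb, and the NADs at Tet2 and near Tet1 were 0.0997 and 0.0999 Mb long. The part of Tet2 covered, its start lying outside and the distance of Tet1 in ESCs are below this resolution. The level of Tet2 is given above; no relation between NADs and RNA was tested.

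The promoters of the 3 de novo genes are shown because these genes moved in opposite directions and differ in content of CpG. CpG holds the letters that the enzymes act on. The choice thus rested on their values, and no relation between CpG content and level was tested. RefSeq (GRCm38.p6) held 300-base windows, from 250 bases before to 50 after a start, for all 9 members. The motif is CG, which reads the same on both strands and is in capitals; 94.6% of 32851 windows hold it at least once, with a median of 7 and quartiles of 3 and 20. Dnmt3a had 46 at its first start (1.65% of windows hold as many or more), 47 in an overlapping window (1.44%) and 18 at a start within the gene (29.7%), Dnmt3b had 30 (11.7%) and Dnmt3l 6 at its first start (56.4%), with 4 and 3 at later starts. Values per gene do not tell which start was used. Of the other members, Tet2 had 57, Tet3 22, Tet1 17 and Tdg 26, while the 2 windows of Uhrf1 held 12 and 33 and the 3 of Dnmt1 33, 12 and 2. The 4 windows shown lie on the plus strand, at chr12:3806730-3807029 and chr12:3891494-3891793 for Dnmt3a, chr2:153649199-153649498 for Dnmt3b and chr10:78042037-78042336 for Dnmt3l.
Dnmt3a, first start: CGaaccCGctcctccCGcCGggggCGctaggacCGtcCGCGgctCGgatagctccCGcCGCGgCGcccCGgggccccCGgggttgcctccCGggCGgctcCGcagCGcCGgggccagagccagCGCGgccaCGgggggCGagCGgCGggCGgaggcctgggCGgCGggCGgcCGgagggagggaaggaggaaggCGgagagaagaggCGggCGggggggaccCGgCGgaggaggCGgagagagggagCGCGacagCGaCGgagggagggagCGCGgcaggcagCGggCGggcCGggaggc
Dnmt3a, start within the gene: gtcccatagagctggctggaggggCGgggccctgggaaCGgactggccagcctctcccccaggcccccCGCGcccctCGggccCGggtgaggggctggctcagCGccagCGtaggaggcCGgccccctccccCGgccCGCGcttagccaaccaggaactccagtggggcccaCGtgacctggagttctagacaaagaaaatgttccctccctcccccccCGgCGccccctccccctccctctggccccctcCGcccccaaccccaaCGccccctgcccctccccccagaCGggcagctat
Dnmt3b: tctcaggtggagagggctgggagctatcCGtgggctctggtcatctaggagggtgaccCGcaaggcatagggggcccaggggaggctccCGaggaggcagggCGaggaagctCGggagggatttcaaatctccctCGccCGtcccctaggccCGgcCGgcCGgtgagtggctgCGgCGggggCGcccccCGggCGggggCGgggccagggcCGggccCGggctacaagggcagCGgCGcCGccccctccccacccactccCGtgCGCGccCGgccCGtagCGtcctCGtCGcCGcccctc
Dnmt3l: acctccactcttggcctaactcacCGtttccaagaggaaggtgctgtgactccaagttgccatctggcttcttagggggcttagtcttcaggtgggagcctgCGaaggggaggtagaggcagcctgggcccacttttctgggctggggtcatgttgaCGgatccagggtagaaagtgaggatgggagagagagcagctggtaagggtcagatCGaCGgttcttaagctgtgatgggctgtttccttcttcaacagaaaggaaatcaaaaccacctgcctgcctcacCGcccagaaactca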

How the data were processed

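RNAseq was measured in 3 ESC and 3 NPC samples, grouped by their labels; other measurements of the series were not analysed here, except the NADs. The authors filtered rRNA (SortMeRNA 2.1), trimmed reads (Trimmomatic 0.36), used STAR 2.4.0.1 on mm10 and deposited RPKM values from exon coverage; submitters' processing notes also name Bowtie2 2.3.4.3 and Subread 1.4.6-p4. NADs and their score were deposited by the authors as 1 list per cell type. The library kit is named differently in labels and methods; annotation and strand use are not given. Depth, estimated at 26.9 to 33.9 M reads, limits values near that of 1 read. Of 22064 lines, 153 symbols occurred more than once and the line with the highest mean was kept. Genes at or above 1 RPKM in at least 3 samples entered limma 3.58.1 (R 4.3.3; lmFit, then eBayes with trend) on log2(RPKM + 1), with Benjamini-Hochberg adjustment over all 7835. Where a sample was left out, the same genes were tested. Ratios between members were tested by exact permutation (two-sided, SciPy 1.17.1); Dnmt3l/Dnmt3b had no log2 value in 1 sample, so the adjustment covers the other 5. Tables were handled in Python 3.11.15 with pandas 2.3.3 and numpy 2.4.6, and figures drawn with matplotlib 3.10.9. Gene positions and exon lengths came from GENCODE on GRCm38, and NAD starts were raised by 1 base. The code was tested on simulated data. Named genes were the members, cell type markers, the 2 nearest patterns of 3 members (not all are given), and list genes called with a difference of at least 1 (at most 4 per list and direction); an exception is said where it occurs. The members and lists were chosen with earlier results of these data known. Alternatives were a pseudocount of 0.1, no filter, 2 scalings, no trend, the replicate number as a block, samples left out in turn, repeated symbols left out, 0.1 RPKM added to both values of a ratio, and other rules for overlap with NADs. List medians under each alternative were added after the data were seen.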

Additional observations from a re-analysis of the deposited data

How the results depend on the processing

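The calls of Uhrf1, Dnmt3a, Dnmt3b, Dnmt3l and Tet3 and their directions held under every alternative run. Dnmt1 was 0.0762 with median ratio scaling, 0.3067 with scaling to equal sums, 0.0481 without ESC replicate 1, 0.053 without ESC replicate 2 and -0.43 without ESC replicate 3, where alone it passed. Tet1 lost its call with scaling to equal sums (-1.32, adjusted p = 0.0901) and without each sample but ESC replicate 3 (range over left-out samples -1.79 to -1.06). Tet2 ranged over left-out samples from -0.16, without ESC replicate 3, to 0.44, and was 0.82 with scaling to equal sums. Tdg passed with median ratio scaling (0.43), without ESC replicate 2 (0.42) and without ESC replicate 3 (0.16), and was 1.02 with equal sums and 0.65 with a pseudocount of 0.1, short of the threshold (adjusted p 0.0603 and 0.101). The cause was not tested.

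These scalings moved the median of all genes from 0.02 to 0.18 (median ratio) and 0.45 (equal sums, which also makes the pseudocount smaller relative to the values). Of all calls, 52.6% were higher in NPCs, but 62.1% and 69.0% with these scalings, and of calls of at least 1, 57.9% against 68.6% and 77.3%. With equal sums, 1585 genes were called lower (2606 without) and 2486 at least 1 higher (1301 without). Genes of all lists called lower were then 19 (36 without): 2 maintenance partners (5), 2 of base excision repair (6), 4 of metabolism (8) and 6 of S phase and mitosis (12). With no filter, which tests more genes, 7245 were higher (2894) and 4209 lower (2606), with 1 reader lower (0), 2 metabolism genes higher (1) and 10 germline genes lower (1).

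With samples left out, readers called lower ranged from 0 to 1 (1 without ESC replicate 3), metabolism genes higher from 0 (without NPC replicate 3) to 2 (without ESC replicate 3) and S phase genes higher from 0 (without each NPC replicate) to 1. Of 52 other genes chosen by the rule for named genes, with a test, none changed direction; calls of Hells, Mcm2, Tubb3 and Mki67 were lost under 6 combinations of gene and alternative and that of Vim was gained under 3. With the replicate number as a block, 2754 genes were higher and 2460 lower, and no member's call changed. Deviations of same-numbered ESC and NPC samples correlated at 0.114, -0.083 and 0.032 across genes, so the numbers were not taken as pairs. Members in NPC NADs were 0 by the start of the gene, by NADs at or above the median score, or by at least 50% of the span (1 by any overlap, Tet2). Ratios had the same sign under their alternatives, but the exact permutation test cannot pass the threshold with 3 samples per group. With 0.1 RPKM added, the difference of Tet3/Tet1 was 5.65 (7.35 without) and that of Dnmt3b/Dnmt3a -6.90 (-7.80 without). Dnmt3l/Dnmt3b had a log2 value in all samples only with 0.1 RPKM added. Depth limited Dnmt3l in NPCs.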
